A study of Mus musculus with 6 samples.

Results

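The genes that write, copy and erase DNA methylation were compared between mouse induced pluripotent stem (iPS) cells and nuclear-transfer embryonic stem (ntES) cells. The set was drawn up by name as 10 genes in 3 roles: Dnmt3a, Dnmt3b and Dnmt3l for de novo methylation, Dnmt1, Uhrf1 and Uhrf2 for its maintenance, and Tet1, Tet2, Tet3 and Tdg for its removal. A gene was taken where the platform annotation gave a probe set that symbol and no other. This found 9 of the 10 genes, on 12 probe sets, among 19308 genes on 20746 probe sets with a single symbol. Tdg has no value here, because each of its 4 probe sets also carries the symbol of its pseudogene Tdg-ps2. Tet1 had 3 probe sets and Tet3 had 2, and the brightest stands for the gene.

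Both groups were G3 Terc-/-, that is, generation 3 mice without the RNA subunit of telomerase, and both were derived from tail-tip fibroblasts. All cells were grown on mitomycin C-treated embryonic fibroblast feeders, so each array can hold some feeder RNA. There were 3 arrays of iPS cells and 3 of ntES cells, which the series describes as biological repeats of a cell line. Should a group be a single line, an effect of that line and one of the reprogramming method cannot be told apart, and the p-values then reflect only how far these samples vary. All 6 samples lacked Terc, so the values compare the 2 kinds of reprogrammed cell with each other on that background only.

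DNA methylation in mammals is set on cytosines, mostly where they precede a guanine (CG). Dnmt3a and Dnmt3b place new marks, with Dnmt3l, which has no catalytic activity of its own, as their cofactor. Dnmt1 copies marks to the new strand after replication, and Uhrf1 brings it to hemimethylated sites. The TET enzymes oxidize methylated cytosine, and Tdg excises the oxidized bases. Mouse embryonic stem cells express most of these genes, and their balance shifts between the naive and the primed pluripotent state.

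The 3 de novo genes were all higher in ntES cells, by 1.35- to 1.59-fold, and their groups did not overlap. In the other 2 roles Uhrf2 and Tet2 were lower in ntES cells, by 1.35- and 1.34-fold, while Dnmt1, Uhrf1, Tet1 and Tet3 did not pass the test. In all, 5 of 9 measured genes passed at an adjusted p of 0.05 by limma, 3 higher and 2 lower in ntES cells. Over all 23344 probe sets 11.3% passed, 5.19% higher and 6.13% lower. The median difference, ntES minus iPS, was 0.58 (log2) for the de novo genes, -0.14 for the maintenance genes and -0.05 for the removal genes, against 0.04 over all probe sets. Markers of fibroblasts and feeder cells moved alongside, with 28 of 30 above 0, and their summed linear signal ran from 46953 to 57958 on the iPS arrays and from 58054 to 75358 on the ntES arrays. In such bulk RNA, more cells of a type and more RNA per cell cannot be told apart, and the part of feeder RNA in these results was not tested. Leaving out iPS replicate 1, iPS replicate 2 or ntES replicate 2 left 2 of the 9 genes called in each case, Dnmt3a and Dnmt3l. In these fits the share of all probe sets called fell as well, to 4.86%, 4.46% and 4.34%.

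The sequences upstream of the starts of the 5 genes that passed are shown first, because most DNA methylation is set at CG pairs. Each is the 250 bases before a RefSeq transcription start in GRCm38.p6, written 5′ to 3′ on the gene's strand, with every CG in capitals. Where a gene has several starts the most downstream is printed, and the arrays do not tell which start was in use. The windows are Dnmt3a at chr12:3891494-3891743 (plus strand), Dnmt3b at chr2:153649199-153649448 (plus), Dnmt3l at chr10:78055085-78055334 (plus), Uhrf2 at chr19:30030263-30030512 (plus) and Tet2 at chr3:133544391-133544640 (minus).
Dnmt3a: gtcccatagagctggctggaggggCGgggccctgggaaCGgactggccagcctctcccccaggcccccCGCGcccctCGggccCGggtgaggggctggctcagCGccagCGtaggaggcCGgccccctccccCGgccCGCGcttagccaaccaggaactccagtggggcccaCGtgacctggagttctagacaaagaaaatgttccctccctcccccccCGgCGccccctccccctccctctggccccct
Dnmt3b: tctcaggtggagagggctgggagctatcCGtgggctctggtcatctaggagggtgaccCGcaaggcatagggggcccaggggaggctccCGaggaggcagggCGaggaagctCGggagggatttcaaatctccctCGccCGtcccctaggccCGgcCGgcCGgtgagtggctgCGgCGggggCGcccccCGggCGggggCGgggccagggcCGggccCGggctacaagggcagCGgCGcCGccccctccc
Dnmt3l: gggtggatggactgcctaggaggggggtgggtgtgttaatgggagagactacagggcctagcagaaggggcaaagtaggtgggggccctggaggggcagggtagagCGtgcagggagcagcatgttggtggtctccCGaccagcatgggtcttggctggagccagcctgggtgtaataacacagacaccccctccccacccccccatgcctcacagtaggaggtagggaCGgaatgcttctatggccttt
Uhrf2: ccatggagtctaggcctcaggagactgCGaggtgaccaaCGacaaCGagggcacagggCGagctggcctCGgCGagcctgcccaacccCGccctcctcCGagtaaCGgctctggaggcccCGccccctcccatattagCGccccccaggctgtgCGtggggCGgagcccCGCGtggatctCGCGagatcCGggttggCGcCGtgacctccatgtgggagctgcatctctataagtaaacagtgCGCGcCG
Tet2: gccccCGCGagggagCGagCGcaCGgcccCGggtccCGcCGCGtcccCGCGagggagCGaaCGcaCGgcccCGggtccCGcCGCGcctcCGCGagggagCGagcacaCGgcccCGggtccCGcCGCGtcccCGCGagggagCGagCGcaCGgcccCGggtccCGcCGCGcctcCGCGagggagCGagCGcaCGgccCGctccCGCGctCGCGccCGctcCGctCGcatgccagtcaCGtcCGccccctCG

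The windows of the 3 genes that rose together were unlike each other in CG content. The Dnmt3l window held 3 CG pairs, and the windows at its other starts held 5 and 4, all below the median of 6 over 32851 RefSeq windows of this length. The printed Dnmt3a window held 15, while the windows at its 2 upstream starts held 38 and 40. Dnmt3b held 21. Of the genes that fell, Uhrf2 held 23 and Tet2 held 51, and 0.0487% of all windows held more than the latter. The GC box GGGCGG, searched on both strands, had a match in the printed windows of Dnmt3a, Dnmt3b, Uhrf2 and Tet2 and none in that of Dnmt3l, although the window at another Dnmt3l start held 2, against 32.7% of all windows with a match. The E-box CACGTG, which reads the same on both strands and contains a CG, was matched in the printed Dnmt3a window, in that same other Dnmt3l window and in 6.02% of all windows. These are letter matches in a reference genome, and methylation itself was not measured.

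Dnmt3a, which places new marks across gene bodies and intergenic DNA, read 7.85, 7.94 and 7.84 (log2) on the iPS arrays and 8.37, 8.44 and 8.55 on the ntES arrays. Every ntES array lay above every iPS array, and the gap of 0.43 between the groups was wider than the range within either. The difference was 0.58 ± 0.08 (log2, SE; adjusted p = 0.00175, limma), a 1.49-fold higher level with a 95% interval of 1.31 to 1.69. Of the 1000 probe sets closest to it in brightness, 2.6% differed by more in the same direction. It passed under all 15 alternative settings tried, with an adjusted p of 0.0371 at most.

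Dnmt3l, the cofactor of the de novo enzymes in germ cells and embryonic stem cells, read 9.97, 10.11 and 9.80 in iPS cells and 10.40, 10.58 and 10.91 in ntES cells (log2). The groups did not overlap, although the ntES arrays spread over 0.50. The difference was 0.67 ± 0.13 (log2, SE; adjusted p = 0.00849, limma), or 1.59-fold with a 95% interval of 1.31 to 1.95, the largest among the 9 genes. Of the 1000 probe sets of like brightness, 1.0% differed by more in that direction. It did not pass the test without variance moderation (adjusted p = 0.148).

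Dnmt3b, the de novo enzyme of the early embryo and of centromeric repeats, read 8.71, 8.68 and 8.48 in iPS cells and 8.89, 9.06 and 9.23 in ntES cells (log2). Its groups were apart by 0.18, less than the range within either group. The difference was 0.44 ± 0.11 (log2, SE; adjusted p = 0.0243, limma), or 1.35-fold with a 95% interval of 1.15 to 1.59. The adjusted p of Dnmt3b was 0.0695 with iPS replicate 1 left out, 0.0842 with iPS replicate 2, 0.086 with iPS replicate 3 and 0.115 with ntES replicate 2 left out. It also missed the threshold after median centring (0.0501) and without moderation (0.171), while the difference stayed between 0.35 and 0.52 under every setting.

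Whether the de novo genes changed by unequal amounts was asked within each array. The difference of Dnmt3l was larger than that of Dnmt3b by 0.24 ± 0.07 (log2, SE), and the within-array differences of the groups did not overlap (exact permutation p = 0.1, two-sided, adjusted p = 0.16 over 8 pairs). With 3 arrays against 3, 0.1 is the smallest p this test can give, so no pair could pass. The difference of Dnmt3a minus that of Dnmt3b was 0.14 ± 0.08, and minus that of Dnmt3l it was -0.10 ± 0.11. In both of these pairs the groups overlapped (exact permutation p = 0.2 and 0.5, adjusted p = 0.229 and 0.5).

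**Figure D1:**
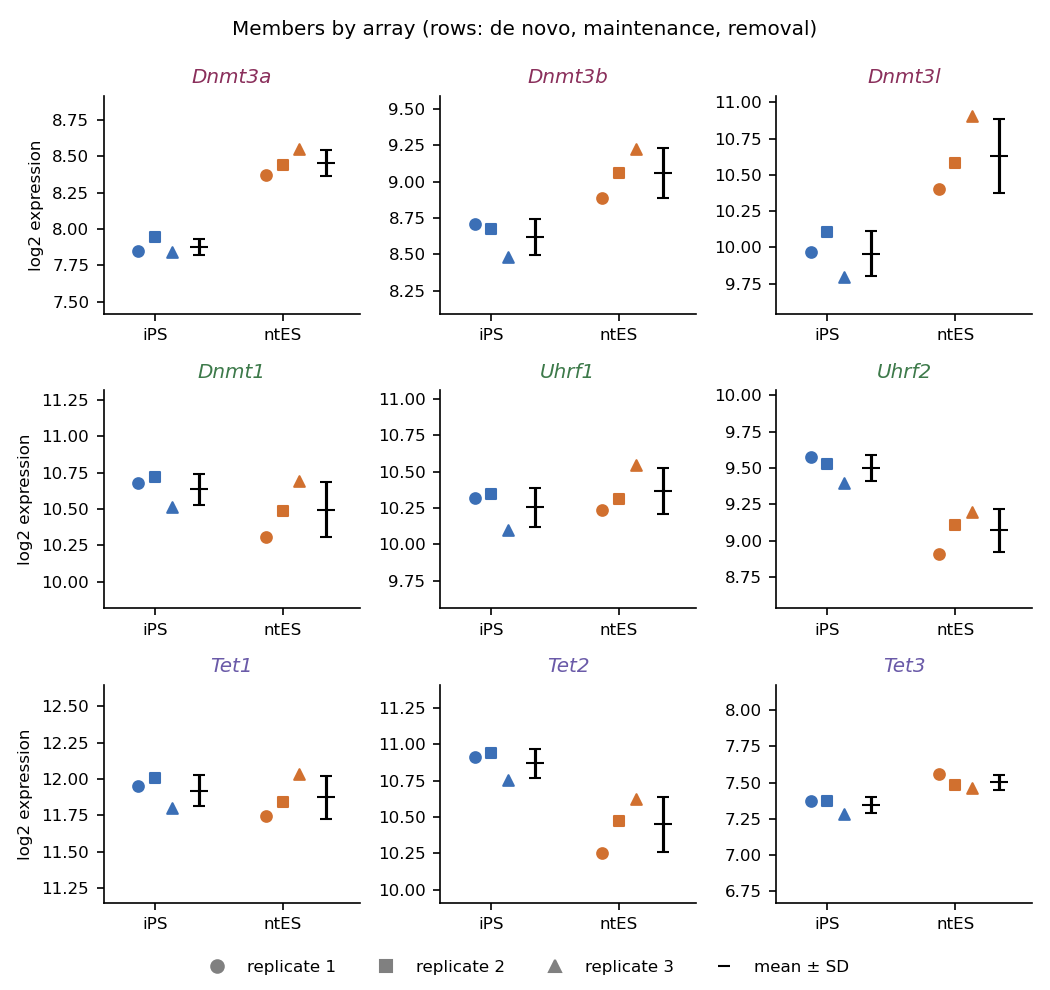
Log2 expression of the 9 measured genes on each array, iPS in blue and ntES in orange, with the mean ± SD of 3 arrays in black; marker shapes give the replicate number, and every panel spans the same log2 range. The top row shows the de novo genes, with no overlap between groups, the middle row Dnmt1, Uhrf1 and Uhrf2, and the bottom row Tet1, Tet2 and Tet3.

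Dnmt1, the maintenance methyltransferase, read 10.68, 10.72 and 10.52 in iPS cells and 10.31, 10.49 and 10.69 in ntES cells (log2). The groups overlapped, and the ntES arrays alone spread over 0.38. The difference was -0.14 ± 0.11 (log2, SE; adjusted p = 0.461, limma), and its 95% interval reached from -0.38 to 0.10.

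Uhrf1, which recognizes hemimethylated CG sites and brings Dnmt1 to them, read 10.32, 10.35 and 10.10 in iPS cells and 10.24, 10.32 and 10.54 in ntES cells (log2). Its groups overlapped as well. The difference was 0.11 ± 0.11 (log2, SE; adjusted p = 0.552, limma), with a 95% interval from -0.12 to 0.35. After quantile normalization, which gives all arrays one distribution, Uhrf1 passed as higher at 0.17 (adjusted p = 0.0218).

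Uhrf2, a paralog of Uhrf1 that shares its domain layout, went the other way. It read 9.57, 9.53 and 9.40 in iPS cells and 8.91, 9.11 and 9.20 in ntES cells (log2), with every ntES array below every iPS array and a gap of 0.20 between the groups. The difference was -0.43 ± 0.10 (log2, SE; adjusted p = 0.0182, limma), so that the level was 1.35-fold higher in iPS cells. Of the 1000 probe sets of like brightness, 9.4% fell by more. The adjusted p of Uhrf2 rose to 0.102 with iPS replicate 1 left out, 0.0976 with iPS replicate 2 and 0.0823 with ntES replicate 2 left out, and was 0.129 without moderation.

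Set against each other within the arrays, Uhrf1 minus Uhrf2 was 0.70 to 0.82 (log2) on the iPS arrays and 1.21 to 1.34 on the ntES arrays. The groups did not overlap, and the difference was 0.54 ± 0.06 (log2, SE; exact permutation p = 0.1, adjusted p = 0.16). It was 0.51 to 0.58 with 1 array left out and 0.55 after quantile normalization. For Dnmt1 minus Uhrf1 the difference was -0.25 ± 0.04, again without overlap (exact permutation p = 0.1, adjusted p = 0.16).

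Tet1, the main TET enzyme of mouse embryonic stem cells along with Tet2, read 11.95, 12.00 and 11.80 in iPS cells and 11.74, 11.84 and 12.04 in ntES cells on its brightest probe set (log2). The groups overlapped on all 3 of its probe sets, and the differences were -0.05 ± 0.10, -0.06 ± 0.12 and -0.15 ± 0.11 (log2, SE; adjusted p = 0.813, 0.784 and 0.447, limma). The 95% interval of the brightest ran from -0.26 to 0.17. After quantile normalization the dimmest of the 3 passed as lower, at -0.14 (adjusted p = 0.0331), and the other 2 did not (0.526 and 0.453).

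Tet2 was the removal gene that fell. It read 10.91, 10.94 and 10.76 in iPS cells and 10.25, 10.47 and 10.62 in ntES cells (log2), so that the groups were apart by 0.13 while the ntES arrays spread over 0.37. The difference was -0.42 ± 0.11 (log2, SE; adjusted p = 0.0291, limma), or 1.34-fold higher in iPS cells, and 8.4% of the 1000 probe sets of like brightness fell by more. With iPS replicate 1 left out the adjusted p of Tet2 was 0.134, with iPS replicate 2 it was 0.148 and with ntES replicate 2 it was 0.117, and it was 0.186 without moderation. The difference lay between -0.51 and -0.32 under every setting.

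Tet3, the TET enzyme of the oocyte and zygote, was below the median of all probe sets on both of its probe sets. The brighter read 7.37, 7.37 and 7.28 in iPS cells and 7.56, 7.48 and 7.46 in ntES cells (log2). The groups did not overlap, but the difference of 0.16 ± 0.08 (log2, SE) did not pass (adjusted p = 0.25, limma), with a 95% interval from -0.02 to 0.33. The 1000 probe sets of like brightness had a median difference of 0.10. With Tet3, 6 of the 9 genes had groups that did not overlap, against 26.5% of all probe sets.

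The TET genes were also set against each other within the arrays. Tet1 minus Tet2 was 1.04 to 1.06 on the iPS arrays and 1.37 to 1.49 on the ntES arrays, a difference of 0.38 ± 0.04 (log2, SE; exact permutation p = 0.1, adjusted p = 0.16). The absolute size of such a within-array value also reflects the probes, and only its difference between groups is compared. For Tet2 minus Tet3 it was -0.58 ± 0.14 without overlap (exact permutation p = 0.1, adjusted p = 0.16), and for Tet1 minus Tet3 -0.20 ± 0.12 with overlap (exact permutation p = 0.2, adjusted p = 0.229).

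**Figure D2:**
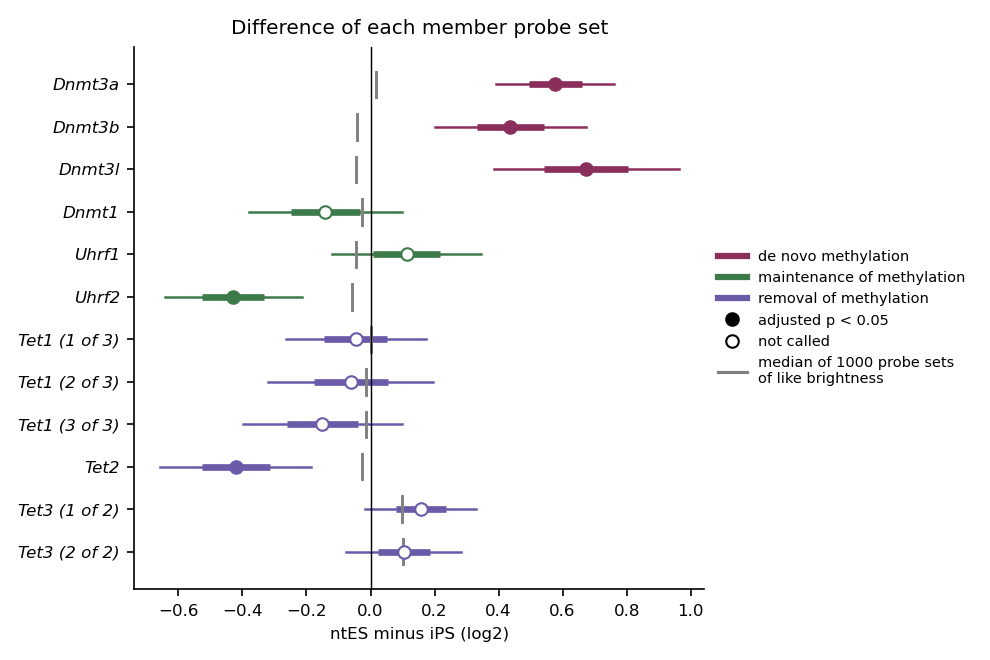
Difference of each of the 12 probe sets, ntES minus iPS on the log2 scale, with thick bars for 1 SE and thin lines for the 95% interval; filled points passed at an adjusted p of 0.05, and grey ticks give the median of the 1000 probe sets closest in brightness. The de novo genes lie between 0.44 and 0.67, Uhrf2 and Tet2 at -0.43 and -0.42, and the intervals of the other 7 probe sets cross 0.

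The spread between arrays of a group had a shared part. Array medians lay between 7.61 and 7.70 (log2), while the SD over probe sets was 1.51 for ntES replicate 1, the lowest, and 1.74 for ntES replicate 3, the highest. Quantile normalization narrowed the spread within groups by unequal amounts. For Dnmt3b the SD over ntES arrays went from 0.17 to 0.02 and over iPS arrays from 0.12 to 0.07, and for Tet2 from 0.19 to 0.03 and from 0.10 to 0.02, while their differences became 0.48 and -0.39. For Dnmt3a the SD over iPS arrays went from 0.06 to 0.05, and for Tet3 it widened from 0.05 to 0.09. On that scale 6 of the 9 genes passed, with Uhrf1 added, against 30.1% of all probe sets. The share of called probe sets that were higher in ntES cells was 45.9%, and 30.1% after each array was centred on its own median.

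**Figure D3:**
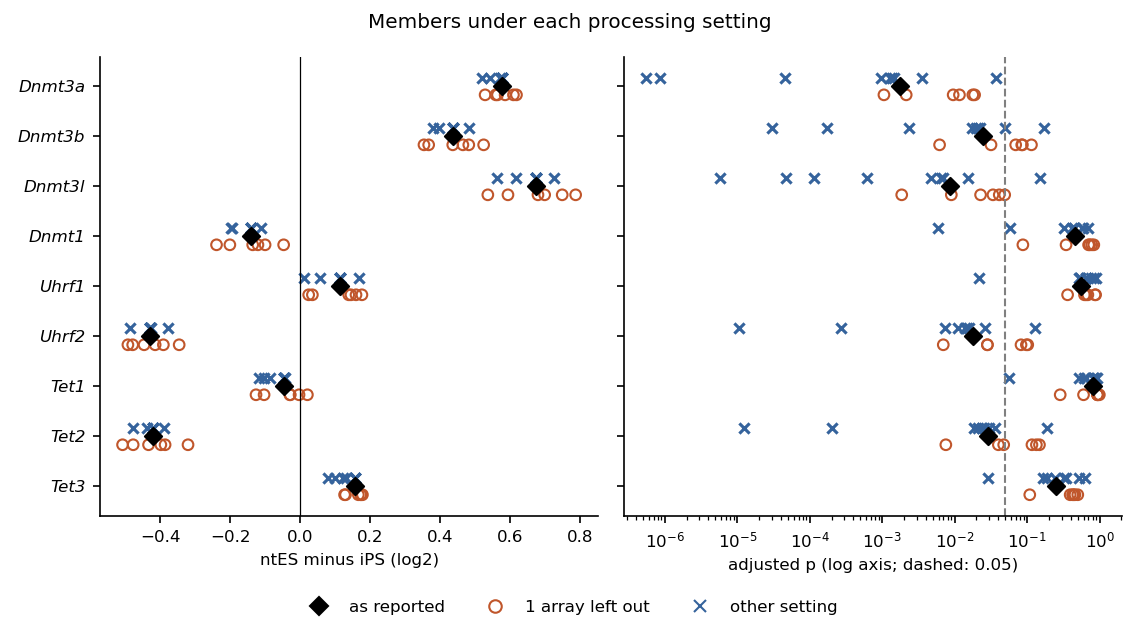
Each gene's difference, ntES minus iPS in log2 (left), and its adjusted p on a log axis (right), as reported (black diamonds), with 1 array left out (open circles) and under the other settings (crosses). Dnmt3a stays left of the dashed threshold of 0.05 throughout, Dnmt3l crosses it once, and Dnmt3b, Uhrf2 and Tet2 cross it when single arrays are left out.

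Likeness to a member was measured as the root mean square distance between centred log2 values over the 6 arrays. The candidates were 9675 genes at or above the median probe set in brightness. Nearest to Dnmt3a were Phka1, Prkcz and Znhit6, at distances of 0.02, 0.03 and 0.04. Their differences were 0.59, 0.54 and 0.53. Nearest to Uhrf2 were Tut1, Cmip and Snora30, with differences of -0.44, -0.43 and -0.44. Nearest to Tet2 were Slc29a1, Mrpl9 and Atmin, with -0.43, -0.42 and -0.45. All of these distances lay between 0.01 and 0.04 on the log2 scale. Genes picked as near in these values have like differences by the way they were picked.

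Regulators and cofactors of the writing and copying enzymes were looked at next. Of 28 measured genes, 2 rose and 3 fell in ntES cells, 17.9% against 11.3% of all probe sets, with a median of 0.06, and of 0.00 after median centring. After quantile normalization 8 rose and 6 fell, where 30.1% of all probe sets passed. Dim probe sets, those below the median in brightness, pass less often. With these left out of the fit, 2 of 27 genes rose and 2 fell, where 19.3% of all tested probe sets passed. Prdm14, a repressor of the de novo methyltransferase genes in naive cells, read 9.61, 9.59 and 9.34 in iPS cells and 8.66, 8.82 and 8.85 in ntES cells (log2). It fell by 0.74 on the log2 scale (adjusted p = 0.00114, limma), and all 3 ntES arrays lay below all 3 iPS arrays. Dppa3, which keeps Uhrf1 off chromatin in the oocyte and shields the maternal genome, fell by 0.86 (adjusted p = 0.000143) on its brightest probe set. Over the mean of its probe sets Dppa3 fell by 0.63 (adjusted p = 0.000717). The brightest was dim, with means of 8.04 in iPS and 7.18 in ntES cells (log2) against a median probe set of 7.66.

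Cdca7l, a relative of Cdca7 that partners with the remodeller Hells, fell by 1.21 (adjusted p = 2.7e-05, limma). Cdca7 and Hells themselves differed by 0.08 and -0.17 (adjusted p = 0.661 and 0.423). Zfp445, a zinc finger protein that guards imprints, rose by 0.93 (adjusted p = 0.000339). The imprint guard Zfp57 and its corepressor Trim28 differed by 0.20 and 0.12, and neither passed (adjusted p = 0.349 and 0.567). Prdm14 did not pass without moderation (0.0565).

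Among proteins that read methylated or bare CG sites, 2 of 10 measured genes rose and 1 fell, or 30.0% against 11.3% of all probe sets. After quantile normalization 5 rose and 2 fell, where 30.1% of all probe sets passed. Without dim probe sets 2 of 9 rose and 1 fell, where 19.3% of all tested probe sets passed. Mbd1, a methyl-CG binding repressor, rose by 0.64 (adjusted p = 0.0013, limma), and Kdm2b, which binds bare CG islands, by 0.59 (adjusted p = 0.0037). Mbd6 fell by 0.37 (adjusted p = 0.0453). Its adjusted p was 0.205 with iPS replicate 1 left out, 0.199 with iPS replicate 2, 0.0869 with ntES replicate 1 and 0.208 with ntES replicate 2 left out. Mbd2 and Mbd3 differed by -0.02 and 0.10 and did not pass (adjusted p = 0.91 and 0.608).

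On the removal side, 2 of 26 measured cofactors and base excision repair genes rose and 3 fell, or 19.2% against 11.3% of all probe sets, with a median of -0.01. After quantile normalization 4 rose and 9 fell, where 30.1% of all probe sets passed. Without dim probe sets 2 of 20 rose and 3 fell, where 19.3% of all tested probe sets passed. Gadd45a and Gadd45b, stress genes linked to active demethylation, moved in opposite directions. Gadd45a fell by 0.99 (adjusted p = 0.000112, limma) and Gadd45b rose by 0.78 (adjusted p = 0.00164). The cytidine deaminase gene Apobec1 fell by 0.43 (adjusted p = 0.0169), and this p became 0.0994 with iPS replicate 1 left out, 0.0835 with iPS replicate 2 and 0.0934 with ntES replicate 2 left out. In each of these 3 fits 2 genes of the list rose and 1 fell, and without ntES replicate 3 there were 2 and 8. Of all probe sets, 4.34% to 4.86% passed in these 3 fits and 21.6% without ntES replicate 3. Kdm2b, counted in this list too, is described above. The repair genes Apex1 and Parp1, downstream of base excision, differed by -0.23 and -0.14 and did not pass (adjusted p = 0.273 and 0.507).

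Of 17 measured genes of methyl donor supply, 2 rose and 0 fell by limma, against 4 and 3 at an unadjusted p under 0.05 and 0 and 0 in the unmoderated test. After quantile normalization 6 rose and 3 fell, and with array weights 6 and 5, where 30.1% and 56.3% of all probe sets passed. The genes that rose were Mtr, methionine synthase, by 0.54 (adjusted p = 0.0114), and Bhmt, which makes methionine from betaine, by 0.67 (adjusted p = 0.00167) on its brightest probe set and by 0.39 (adjusted p = 0.0118) over the mean of its probe sets. The adjusted p of Mtr was 0.0598 with iPS replicate 1 left out and 0.0546 with ntES replicate 2 left out. Bhmt was dim, with means of 7.14 in iPS and 7.81 in ntES cells (log2). Without dim probe sets 1 of 14 genes rose and 0 fell, where 19.3% of all tested probe sets passed. Without ntES replicate 3 the list had 2 higher and 3 lower, where 21.6% of all probe sets passed. The share of 11.8% called by limma over all 6 arrays was near that of all probe sets, 11.3%.

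Genes that germ line studies report as silenced by promoter methylation were looked at as possible readouts, without any measure of methylation. Of 31 measured, 6 rose and 1 fell in ntES cells, or 22.6% against 11.3% of all probe sets, with a median of 0.02 and 16 above 0. Only 10 of the 31 were at or above the median probe set in brightness. With dimmer probe sets left out of the fit, 4 of these 10 rose and 2 fell, where 19.3% of all tested probe sets passed. Tdrd12, a piRNA factor, rose by 1.73 (adjusted p = 5.4e-05, limma) and the ribosomal protein paralog Rpl39l by 1.26 (adjusted p = 1.3e-05). Rpl39l was dim, with means of 6.42 in iPS and 7.69 in ntES cells (log2) against a median probe set of 7.66. Hormad1, of the meiotic chromosome axis, rose by 0.45 (adjusted p = 0.0337) and Stag3, a meiotic cohesin, fell by 0.38 (adjusted p = 0.0173). Hormad1 and Stag3 were above the median probe set in both groups. Means in iPS and ntES cells were 9.01 and 9.46 for Hormad1 and 8.80 and 8.42 for Stag3 (log2). Dazl, a germ cell gene that is often taken as a readout of promoter methylation, differed by 0.14 and did not pass (adjusted p = 0.347). The split of the list depended on scaling, with 7 higher and 8 lower after quantile normalization and 3 higher and 3 lower after median centring. Of all probe sets, 30.1% and 11.7% passed under these settings. It also depended on single arrays, with 2 higher and 0 lower when iPS replicate 1, iPS replicate 2 or ntES replicate 2 was left out and 7 higher and 4 lower without ntES replicate 3. The adjusted p of Hormad1 was 0.164, 0.0744 and 0.086 with iPS replicate 1, 2 and 3 left out in turn and 0.0894 with ntES replicate 2 left out. That of Stag3 was 0.0859 and 0.0963 with iPS replicate 1 and 2 left out in turn and 0.112 with ntES replicate 2 left out.

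Imprinted genes, whose expression depends on inherited methylation, held 8 of 23 higher and 3 lower in ntES cells, or 47.8% against 11.3% of all probe sets. The largest differences were 2.20 for Zdbf2, -1.34 for Mest, -1.20 for Phlda2 and 0.96 for Rian (adjusted p = 4e-06, 0.000296, 0.000172 and 0.000508, limma). Without iPS replicate 2 there were 4 higher and 3 lower, and in the unmoderated test 1 higher and 2 lower. Of all probe sets, 4.46% and 3.01% passed in these fits. After quantile normalization 11 rose and 3 fell, and with array weights 15 and 4, where 30.1% and 56.3% of all probe sets passed. After median centring 6 rose and 3 fell, where 11.7% passed. Rian was dim, with means of 7.06 in iPS and 8.02 in ntES cells (log2). Without dim probe sets 6 of 17 imprinted genes rose and 3 fell, where 19.3% of all tested probe sets passed.

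**Figure D4:**
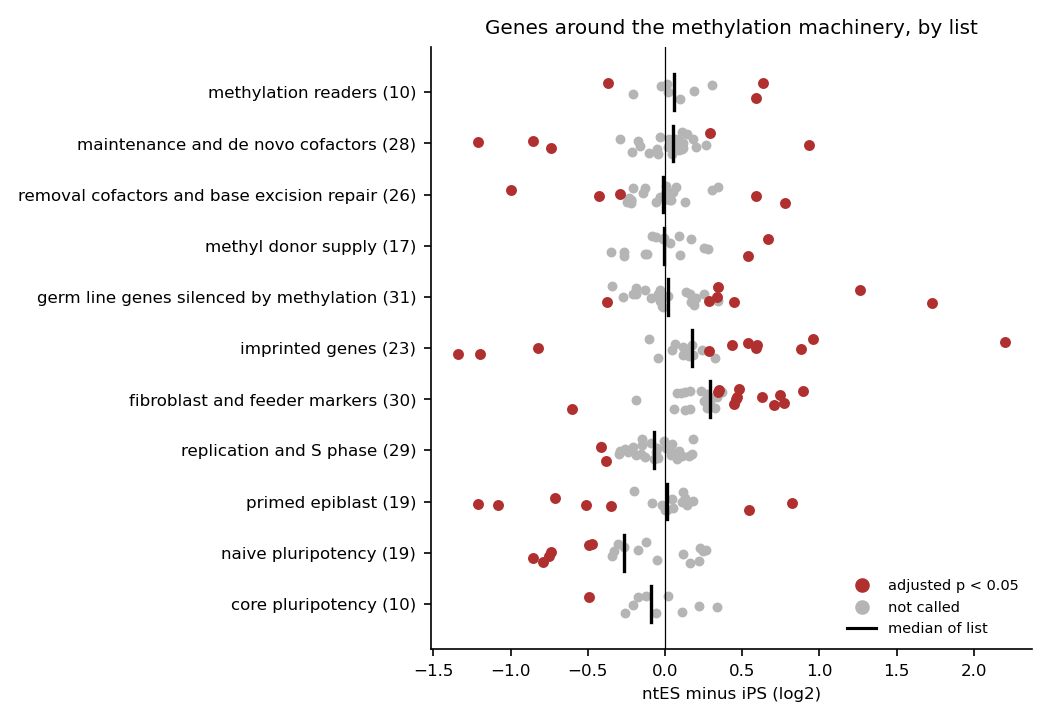
Difference of each measured gene, ntES minus iPS in log2, in 11 lists around the methylation machinery, with the number of genes in brackets; red points passed at an adjusted p of 0.05 and black bars are list medians. Medians lie between -0.27 for naive pluripotency genes and 0.29 for fibroblast and feeder markers.

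Markers of cell state and of other cells were measured on the same arrays. Of 19 naive pluripotency genes 6 fell and 0 rose by limma, or 31.6% against 11.3% of all probe sets. At an unadjusted p under 0.05 the counts were 10 and 2, and in the unmoderated test 1 and 0. After quantile normalization, and likewise with array weights, 12 fell and 5 rose, where 30.1% and 56.3% of all probe sets passed. The median of the list was -0.27, with each gene on its brightest probe set. On these the 4 largest falls were those of Dppa3, Esrrb, Tcl1 and Prdm14 at -0.86, -0.79, -0.75 and -0.74. Dppa3 and Prdm14 were also counted in the list of regulators and cofactors. Dppa3 had no value with dim probe sets left out, where 0 of 18 naive genes rose and 5 fell. In that fit 19.3% of all tested probe sets passed. Of 19 primed epiblast genes 2 rose and 5 fell, or 36.8% against 11.3% of all probe sets. Otx2 was at 0.82, Lef1 at -1.21, Zic5 at -1.08 and Zic2 at -0.71. Otx2 was dim, with means of 7.10 in iPS and 7.92 in ntES cells (log2). Without dim probe sets 1 of 13 primed genes rose and 5 fell. Leaving out ntES replicate 2 left 1 higher and 3 lower among the primed genes, and leaving out ntES replicate 3 gave 10 lower naive genes. In these fits 4.34% and 21.6% of all probe sets passed. Both kinds of cell had strong signal for the pluripotency factors Pou5f1, Sox2 and Nanog, with means over 3 arrays from 11.36 to 12.34 (log2). Of 10 core pluripotency genes 1 was called, or 10%, near the 11.3% of all probe sets. It was Zfp42, counted among the naive genes too, which fell by 0.49 (adjusted p = 0.0185, limma). This p became 0.0954 with iPS replicate 1 left out, 0.11 with iPS replicate 2 and 0.0827 with ntES replicate 2 left out. Without dim probe sets 1 core gene rose and 1 fell, where 19.3% of all tested probe sets passed. After quantile normalization, and likewise with array weights, 2 core genes rose and 5 fell, where 30.1% and 56.3% of all probe sets passed. The part of a shift in cell state in the results for the methylation genes was not tested.

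Of 30 fibroblast and feeder markers 11 rose and 1 fell in ntES cells, or 40.0% against 11.3% of all probe sets. In the unmoderated test 0 rose and 0 fell, and after quantile normalization 19 and 1, where 3.01% and 30.1% of all probe sets passed. Without dim probe sets 11 of 27 markers rose and 1 fell, where 19.3% of all tested probe sets passed. The largest rises were those of Timp3, Ccn2, Postn and Thbs2, at 0.89, 0.77, 0.74 and 0.71. The marker that fell was Thy1, at -0.60 (adjusted p = 0.00498, limma), with no overlap between groups. Fibroblast genes Vim, Fn1 and Dcn differed by 0.10, 0.13 and 0.16 and, like most of the list, did not pass. Without iPS replicate 2 or ntES replicate 2, 5 markers rose and 1 fell, and without iPS replicate 3, 6 rose and 1 fell. In these fits 4.46%, 4.34% and 8.38% of all probe sets passed. Of 29 genes of DNA replication, with which Dnmt1 and Uhrf1 are normally expressed, 0 rose and 2 fell by limma. This share of 6.9% was below the 11.3% of all probe sets. The counts were 0 and 6 at an unadjusted p under 0.05 and 0 and 0 in the unmoderated test. After quantile normalization 4 rose and 8 fell, and with array weights 0 and 15, where 30.1% and 56.3% of all probe sets passed. The genes that fell were Rfc4, by 0.41, and Fen1, by 0.38 (adjusted p = 0.0496 and 0.0201). The adjusted p of Rfc4 lay between 0.0561 and 0.234 with iPS replicate 1, 2 or 3 or ntES replicate 1 or 2 left out, and that of Fen1 between 0.097 and 0.124 with iPS replicate 1 or 2 or ntES replicate 2 left out. Without ntES replicate 3, 8 replication genes fell, where 21.6% of all probe sets passed.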

How the data were processed

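RNA of 6 samples was measured on Affymetrix arrays, 3 of iPS and 3 of ntES cells, labelled with biotin per the labels' protocols. The submitters' processing notes name GCOS 1.4. The authors deposited log2 values of 23344 probe sets from 3.61 to 13.66. The scale is taken from the values. The sources used here do not state how they were background-corrected, normalized or summarized. Symbols came from the platform annotation, with a single symbol for 20746, several for 1183 and no name here for 1415.

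Groups came from the sample titles. All probe sets were fitted together with limma 3.58.1 in R 4.3.3 (lmFit, eBayes, no covariates), with Benjamini-Hochberg adjustment, and called at an adjusted p under 0.05. The script was tested on simulated data. Differences within arrays between 8 pairs of genes had a two-sided exact permutation test (scipy 1.17.1). Genes named were the 9 measured members, in each of 11 lists up to 4 called genes of largest difference, and the 3 genes nearest in profile to the member of smallest p in each role. Other genes with values were named after these were seen, from the same lists. The members and lists were chosen with earlier results of these data known. Alternatives were leaving out each array, a replicate block, array weights, median centring, quantile normalization, leaving out multi-symbol or dim probe sets, robust priors with a variance trend, no moderation, a threshold of 0.01 and the mean of a gene's probe sets. The planned log transform was not needed. Promoter windows are RefSeq's (GRCm38.p6) and matched all 10 genes. The number of arrays limits the precision.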

Additional observations from a re-analysis of the deposited data

How the results depend on the processing

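All 9 measured genes kept their direction under every setting tried, except Tet1, which was 0.02 (log2) without ntES replicate 1. Dnmt3a passed the threshold under all 15 settings, Dnmt3l under 14 of 15, Uhrf2 and Tet2 under 11 of 15 and Dnmt3b under 9 of 15. Without moderation Dnmt3b, Dnmt3l, Uhrf2 and Tet2 kept their differences of 0.44, 0.67, -0.43 and -0.42 and did not pass, and 1 gene was called. After median centring Dnmt3b was 0.38 and did not pass. Quantile normalization brought in Uhrf1 at 0.17. Array weights, which gave ntES replicate 2 a weight of 10.9, called 56.3% of all probe sets and brought in Dnmt1 at -0.20 and Tet3 at 0.12. With 1 array left out, differences ranged from 0.35 to 0.52 for Dnmt3b, from -0.49 to -0.35 for Uhrf2, from -0.51 to -0.32 for Tet2 and from -0.13 to 0.02 for Tet1, and 2 to 5 genes were called. At a threshold of 0.01, 2 genes were called, Dnmt3a and Dnmt3l. Of the genes in the 11 lists, 57 of 231 were called, 130 after quantile normalization, 152 with array weights, 13 without moderation, 32 at 0.01, and 31 to 82 with 1 array left out. Over all probe sets 2643 were called, 7035 after quantile normalization, 13147 with array weights, 703 without moderation, 1150 at 0.01, and 1014 to 5044 with 1 array left out. Tet3 had no value without dim probe sets. Same-numbered arrays of the groups correlated at -0.43, -0.10 and -0.72 in their deviations from group means. Arrays with unlike numbers correlated at -0.48 to 0.69. Deviations from a mean of 3 arrays are tied to each other, so these values cannot show whether same-numbered samples were paired. The replicate block left the same 5 genes called, with adjusted p of 0.000952 for Dnmt3a, 0.0226 for Dnmt3b, 0.000113 for Dnmt3l, 0.0258 for Uhrf2 and 0.03 for Tet2, and called 1983 probe sets in all. The cause of these changes was not tested.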
